A study of Mus musculus with 24 samples.

Results

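Shp2 KO liver was compared with WT liver across all genes of the deposited whole-liver table. Genes entered the comparison when Cuffdiff, a program that tests for differential expression, had tested them and the value was at least 0.1 in either genotype, which left 12588 of the 24319 genes in the table. Shp2 KO livers carried the genotype Alb-Cre+;Shp2f/f, in which Cre recombinase driven by the albumin promoter deletes the floxed Shp2 gene, mainly in hepatocytes. The controls were Wild type mice, for which no Cre or floxed allele is stated, so the deletion cannot be told apart from an effect of either allele. Both groups were 2-month-old male C57/BL6 mice with 3 biological replicates each. The series also holds whole liver of IkkB KO (Alb-Cre+;IkkBf/f) and Double KO (Alb-Cre+;IkkBf/f;Shp2f/f) mice, and hepatocytes isolated from all 4 genotypes, 24 samples in all. Its title sets the deletions of Ras-Erk and NF-κB signalling beside circadian deregulation and liver cancer.

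Shp2, a tyrosine phosphatase encoded by Ptpn11, carries signals of growth factor and cytokine receptors to Ras and Erk, and feedback inhibitors such as the Sprouty and dual-specificity phosphatase families are transcribed when Erk is active. In liver, Shp2 also acts downstream of the Fgf15 receptor complex, which holds back bile acid synthesis after a meal. Hepatocytes make most plasma proteins, clear foreign compounds and bile acids, and divide their metabolic work between the portal and the central side of the lobule. Many mouse liver genes differ between the sexes under the control of growth hormone pulses.

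The deposited table gives 1 value per gene and genotype, read here as FPKM, a fragment count corrected for the length of the transcript and the depth of the library, with the authors' Cuffdiff test. The header does not name this unit, and it is taken from what Cuffdiff writes by convention. The values of the 3 libraries are not given separately, so no SD can be given and the depth is unknown. Genes with q under 0.05 in the authors' deposited table are said to have risen or fallen, and q = 0.000955 was the smallest the table reached. Differences are given as log2((Shp2 KO + 1)/(WT + 1)). Hepatocyte identity could be read in part: Fabp1 and Cyp2e1 were 15713 and 4343 in Shp2 KO liver, against 26117 and 4549 in WT liver, whereas 5 of 15 hepatocyte markers, Alb among them, were among 38 genes too abundant for Cuffdiff to test and were often listed at 0. Ptpn11 fell to 4.09 in Shp2 KO liver, against 12.5 in WT liver, and Ikbkb, which was not deleted in these mice, was 14.2 in Shp2 KO liver and 15.7 in WT liver (Cuffdiff q = 0.774 in the authors' deposited table).

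Past the threshold lay 1174 genes, which was 9.33% of those tested, or 1080 (8.58%) when the p-values were adjusted within this comparison alone. Of these, 658 were higher in Shp2 KO liver (5.23%) and 516 were lower (4.10%), and the median difference of all genes tested was -0.03. Most changes were small: 161 of the higher and 123 of the lower genes differed by at least 1 on the log2 scale, 29 and 19 by at least 2, and 5 and 5 by at least 3. The share that passed ranged over levels from 8.48% of genes with a mean of 1 to 10 FPKM to 12.1% of genes at 100 FPKM or more. The higher genes had a median of 6.899 in Shp2 KO liver and 2.967 in WT liver, and the lower genes a median of 4.833 in Shp2 KO liver and 9.879 in WT liver. Genes were sorted by these same values, so part of the gap between the WT medians is built in. Another 15 genes differed by at least 3 without passing, and 14 of these were microRNA or small nucleolar RNA genes listed at 0 in 1 genotype.

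**Figure D1:**
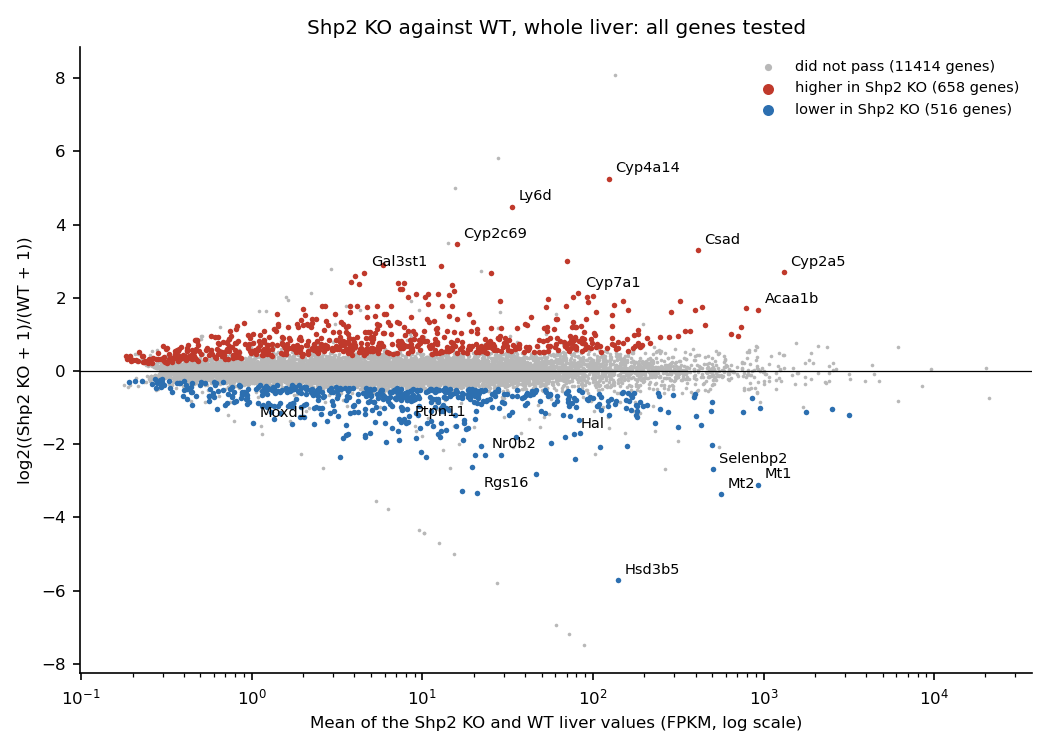
All 12588 genes tested, by the mean of the Shp2 KO and WT values (log axis, FPKM) and the log2 difference, with the 658 higher genes in red, the 516 lower genes in blue and genes that did not pass in grey. The largest changes that passed were Cyp4a14 upwards and Hsd3b5 downwards, and several lie among abundant genes (Cyp2a5, Acaa1b, Mt1, Mt2, Selenbp2).

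Lists of genes were read against these shares. Machinery that every cell uses held no call: 0 of 76 tested ribosomal protein genes, 0 of 76 respiratory chain genes and 0 of 42 proteasome genes passed in the Cuffdiff test, where 0, 2 and 3 of them had an unadjusted p under 0.05. Changes were instead frequent among genes of metabolism, hormone-dependent expression and cell division, each described in turn. A gene near 0 in both genotypes is not tested, so counts are of tested members and cannot be read as shares of a whole family.

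**Figure D2:**
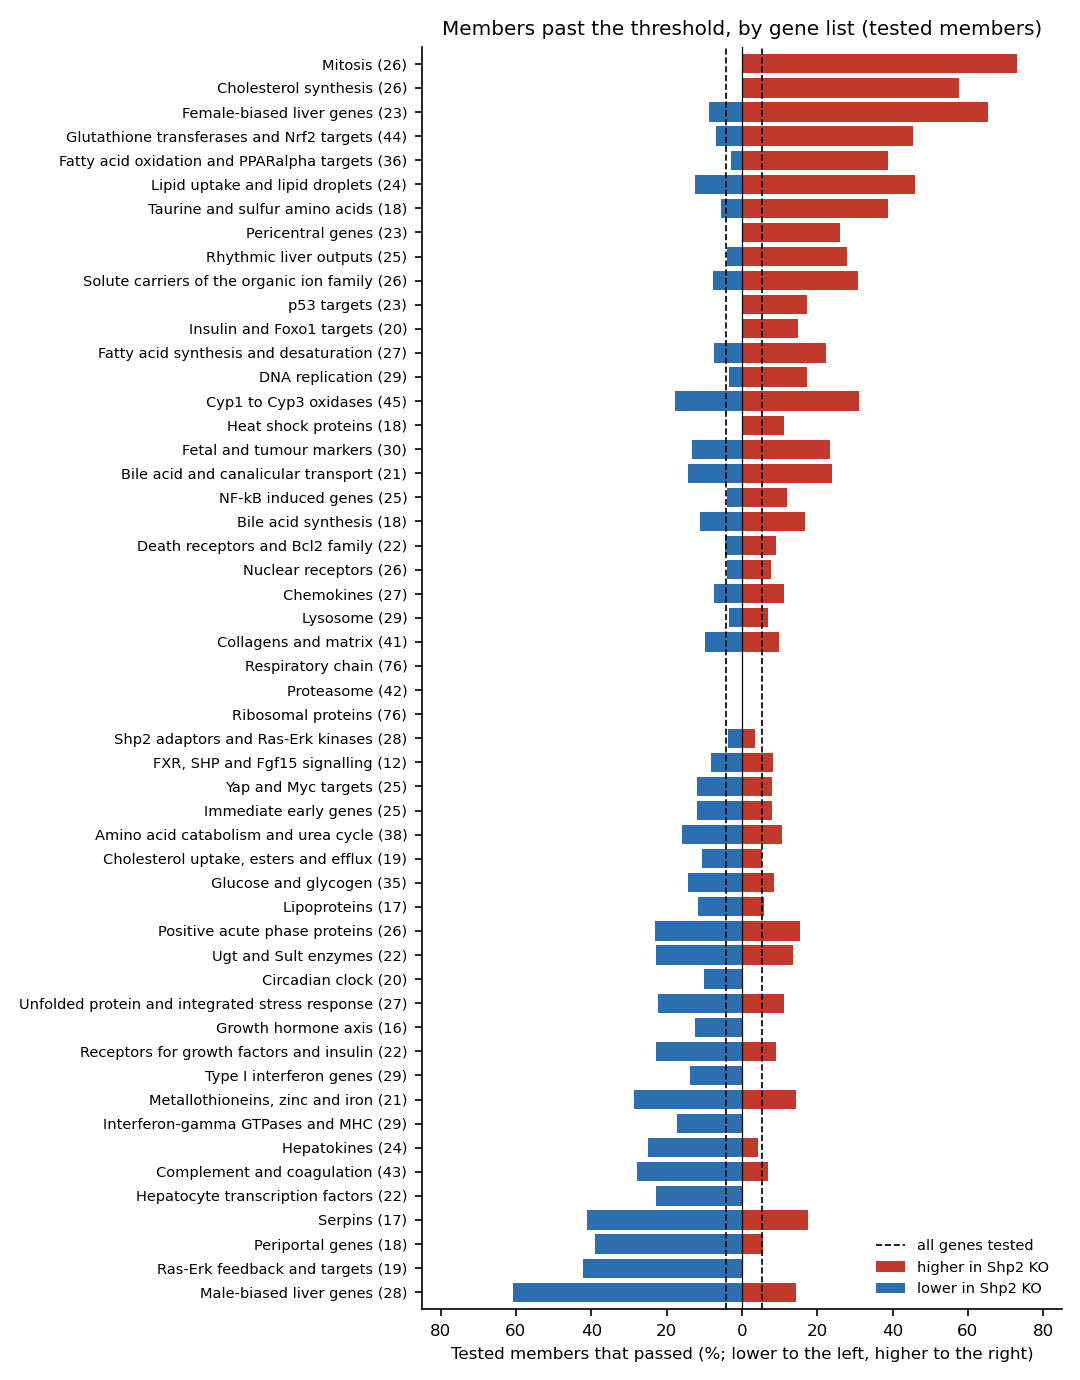
Share of tested members that fell (blue, left) and rose (red, right) in Shp2 KO liver for each list with at least 10 tested members, with the number tested in brackets. Dashed lines mark the shares of all genes tested, 5.23% higher and 4.10% lower.

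Part of the transcripts that report Erk activity fell. Of 19 tested Ras-Erk feedback genes and targets, 8 fell and none rose, with a median difference of -0.44. Besides Spry4, Dusp6, Spred1 and Ccnd1, the phosphatase Dusp4 fell to 0.126 in Shp2 KO liver, against 0.818 in WT liver, and the transcription factor Etv5 fell to 0.384, against 0.979. Phlda1 was 28.9 in Shp2 KO liver and 53.5 in WT liver, and Spred2 0.758 and 1.71. The family was not uniform: Spry1 was 2.26 in Shp2 KO liver and 1.77 in WT liver, and Spry2 0.544 and 0.595, neither of which passed. Of 28 adaptors and kinases, the deleted Ptpn11 fell and the Erk kinase kinase Map2k1 rose, to 28.0 in Shp2 KO liver against 19.7 in WT liver (Cuffdiff q = 0.0438 in the authors' deposited table).

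Several growth factor and cytokine receptors fell, and others rose or did not pass. Fgfr2 fell to 2.68 in Shp2 KO liver, against 6.53 in WT liver, and Fgfr3 to 8.45, against 17.6. The LIF receptor gene Lifr fell to 43.7 in Shp2 KO liver, against 104 in WT liver, and the interleukin-1 receptor gene Il1r1 to 9.48, against 25.4. Egfr was 71.6 in Shp2 KO liver and 139 in WT liver. In this list of 22 tested receptors and substrates, 5 fell and 2 rose, the prolactin receptor gene Prlr (23.4 in Shp2 KO liver, 14.3 in WT liver) and the insulin receptor substrate Irs2 (2.47 and 1.53). Of the receptor complex for Fgf15, Fgfr4 was 21.8 in Shp2 KO liver and 19.9 in WT liver, and Klb 6.48 and 6.31, neither of which passed.

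Bile acid genes changed in opposite directions along the synthesis routes. Of 18 tested synthesis genes, 3 rose (Cyp7a1, Cyp8b1 and Akr1d1) and 2 fell (Cyp7b1 and Cyp2c70). Akr1d1, a reductase of the steroid ring, was 73.0 in Shp2 KO liver and 38.6 in WT liver. Cyp7b1, of the alternative route from oxysterols, fell to 108 in Shp2 KO liver, against 228 in WT liver, and Cyp2c70, which makes the muricholic acids of mice, to 239, against 565. In the control loop, only Nr0b2 (SHP) fell and the coactivator gene Ppargc1a rose among 12 tested genes, while the receptor FXR (Nr1h4) was 87.7 in Shp2 KO liver and 96.6 in WT liver without passing. Fgf15 itself, made in the intestine, was listed at 0 in both.

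Transporters of the canalicular and the blood side changed in both directions. Abcb4, the phospholipid pump of bile, rose to 99.3 in Shp2 KO liver, against 54.9 in WT liver, and the multidrug pump gene Abcb1a to 1.27, against 0.320. Abcg8, which exports sterols into bile as a dimer with Abcg5, fell to 18.3 in Shp2 KO liver, against 38.0 in WT liver, while Abcg5 was 38.2 and 54.0 without passing. On the blood side, the organic anion carrier Slco1a4 rose to 9.49 in Shp2 KO liver, against 4.99 in WT liver, where its relative Slco1a1 fell. Of 21 tested members 5 rose and 3 fell, and the bile salt export pump Abcb11 and the uptake carrier Slc10a1 were 159 and 384 in Shp2 KO liver, against 112 and 495 in WT liver, without passing.

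Sulfur amino acid genes were higher in part, and some of them lead to taurine, the conjugation partner of mouse bile acids. Csad had a difference of 3.31, among the 5 largest rises. Cth, which makes cysteine from cystathionine, rose to 603 in Shp2 KO liver, against 190 in WT liver, and Bhmt, which remethylates homocysteine, to 864, against 425. Suox, which oxidises sulfite, was 84.7 in Shp2 KO liver and 52.7 in WT liver. Of 18 tested members, 7 rose and 1 fell, with a median difference of 0.31. The member that fell was Gclc, the catalytic subunit of glutathione synthesis (34.8 in Shp2 KO liver, 62.5 in WT liver), while its modifier subunit Gclm rose (118 and 75.8). Cdo1, the cysteine dioxygenase upstream of Csad, was 1006 in Shp2 KO liver and 1012 in WT liver.

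Cholesterol synthesis genes rose from the first to the late steps. Of 26 tested members, 15 rose and none fell, with a median difference of 0.74. Acat2, which joins acetyl-CoA units, rose to 75.1 in Shp2 KO liver, against 32.0 in WT liver, and Pmvk, a kinase of the mevalonate pathway, to 109, against 47.0. Later steps were raised as well, with Msmo1 at 245 in Shp2 KO liver and 120 in WT liver, and Nsdhl at 114 and 59.9. The gene of the regulator Srebf2 was 16.9 in Shp2 KO liver and 12.9 in WT liver and did not pass. Hmgcs1 was listed at 0 in both genotypes and was not tested.

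Part of the fatty acid oxidation genes rose. In the list of fatty acid oxidation and PPARα targets, 14 of 36 tested members rose and 1 fell, with a median difference of 0.35. The thioesterases Acot1, Acot2, Acot3 and Acot4 were among those that rose: Acot3 was 7.84 in Shp2 KO liver and 0.695 in WT liver, Acot1 20.8 and 5.36, and Acaa1b, a peroxisomal thiolase, 1419 and 442. Aldh3a2, which oxidises fatty aldehydes, rose to 244 in Shp2 KO liver, against 76.1 in WT liver, and Pdk4, a mitochondrial kinase that holds back pyruvate oxidation, to 3.04, against 0.657. The mitochondrial enzymes Acadvl, Acadl and Hadha were 252, 119 and 103 in Shp2 KO liver, against 248, 121 and 102 in WT liver, none of which passed, and the receptor gene Ppara was 27.3 and 29.5.

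Genes of lipid storage rose together in part. Of 24 tested members of the uptake and lipid droplet list, 11 rose and 3 fell, with a median difference of 0.57. The droplet proteins Fitm1 and Cidec were 148 and 9.43 in Shp2 KO liver, against 39.3 and 3.09 in WT liver, and the acyltransferase Mogat1 was 3.63, against 0.871. The fatty acid binding protein genes went the other way: Fabp5 fell to 40.5 in Shp2 KO liver, against 93.9 in WT liver, Fabp2 to 72.9, against 121, and Fabp4 to 16.0, against 29.2. Fabp4 is also a fat cell gene, and the fat cell genes Cfd and Adipoq fell as well, to 0.765 and 0.0530 in Shp2 KO liver, against 3.85 and 0.786 in WT liver. The summed value of the 12 adipose and muscle markers was 1560 in Shp2 KO liver and 2010 in WT liver, most of it Car3. The part of these tissues in the Fabp4 difference was not tested.

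Lipogenic genes did not move as a group: of 27 tested, 6 rose and 2 fell, with a median difference of 0.07. Me1, malic enzyme, rose to 134 in Shp2 KO liver, against 49.4 in WT liver, and Scd2 to 3.54, against 1.24. Pklr, liver pyruvate kinase, and Pnpla3, both targets of the carbohydrate sensor ChREBP, fell to 122 and 0.172 in Shp2 KO liver, against 234 and 1.22 in WT liver. Fasn was 92.8 in Shp2 KO liver and 123 in WT liver without passing. In plasma lipid transport, Pltp, which moves phospholipids between lipoproteins, rose to 162 in Shp2 KO liver, against 38.0 in WT liver. Apom fell to 126, against 337, and Gm6484, a synonym of Angptl8 in the RefSeq gene table and an inhibitor of lipoprotein lipase activity, fell to 41.9, against 179.

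Targeting subunits that bring protein phosphatase 1 to glycogen passed in both directions. Ppp1r3c fell to 6.48 in Shp2 KO liver, against 19.1 in WT liver, and Ppp1r3b to 32.1, against 49.7, whereas Ppp1r3g rose to 6.94, against 1.30. Ugp2, which makes the glucose donor UDP-glucose, fell to 68.7 in Shp2 KO liver, against 119 in WT liver. Of 35 tested glucose and glycogen genes, 3 rose and 5 fell, with a median of 0.04. G6pc and Pck1 were 314 and 1439 in Shp2 KO liver, against 326 and 1020 in WT liver, neither of which passed.

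Genes of histidine breakdown fell. Hal, which releases ammonia from histidine, fell to 35.5 in Shp2 KO liver, against 119 in WT liver, and the next enzyme Uroc1 fell to 75.4, against 140. Amdhd1, the third enzyme, looked up after the others were seen, fell to 69.5 in Shp2 KO liver, against 104 in WT liver (Cuffdiff q = 0.0417 in the authors' deposited table), a call that was lost when p-values were adjusted within the comparison (q = 0.0544). Ftcd, the last, fell to 106, against 256. Of the urea cycle genes, Cps1, Ass1 and Arg1 were 640, 1264 and 756 in Shp2 KO liver, against 616, 947 and 1034 in WT liver, without passing. In the list of 38 tested amino acid genes, 4 rose and 6 fell, with a median of 0.06. The glyoxylate enzymes Agxt and Hao1 fell to 115 and 129 in Shp2 KO liver, against 246 and 204 in WT liver. Asns, which makes asparagine, rose to 17.2, against 3.50.

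Hal and Uroc1 are genes of the portal side of the lobule, and other periportal genes fell too. Of 18 tested periportal genes, 7 fell and 1 rose, with a median difference of -0.43. Hsd17b6, a steroid and retinoid oxidoreductase, fell to 24.2 in Shp2 KO liver, against 133 in WT liver. Cdh1, encoding E-cadherin, fell to 2.52, against 12.1, and the cytochrome Cyp2f2 to 480, against 1042. Of 23 tested pericentral genes, 6 rose and none fell, with a median of 0.34. Oat, ornithine aminotransferase, rose to 1025 in Shp2 KO liver, against 449 in WT liver, Lhpp, a phosphatase, to 120, against 57.1, and Slc13a3, a dicarboxylate carrier, to 17.3, against 6.13. The best known pericentral genes did not pass, with Glul, Cyp2e1 and Cyp1a2 at 544, 4343 and 417 in Shp2 KO liver, against 405, 4549 and 502 in WT liver, nor did the Wnt targets Axin2 (2.15 and 2.07) and Lgr5 (1.40 and 0.905).

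**Figure D3:**
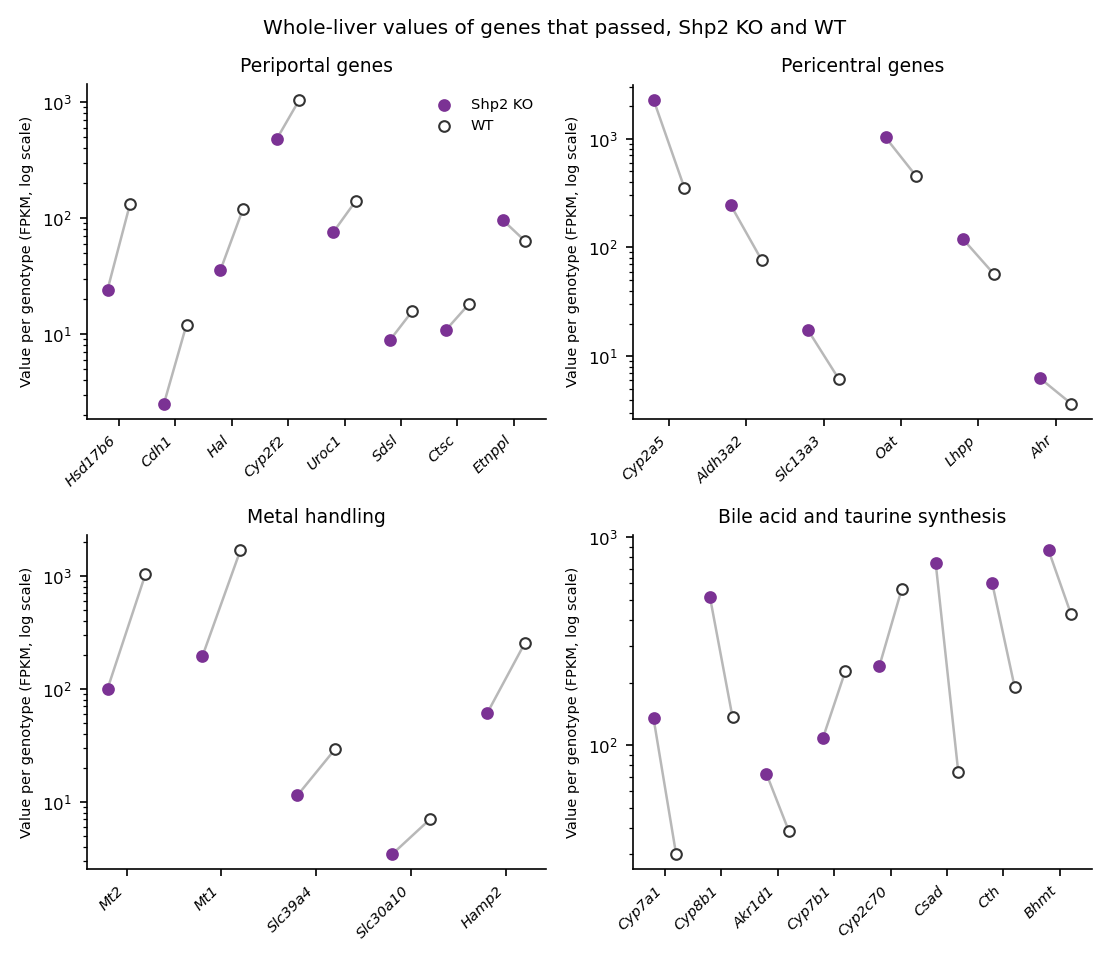
Values of named genes that passed, on log axes in FPKM, with Shp2 KO (filled) to the left of WT (open) for each gene and a line joining the genotypes. Apart from Etnppl, the periportal genes shown were lower in Shp2 KO liver and the pericentral genes shown higher. The sulfur amino acid genes Csad, Cth and Bhmt were higher, the metal-handling genes shown were lower, and the bile acid genes went both ways. Members of these lists that went the other way are not shown: Slc39a5, Hfe and Tfrc, which rose, and Gclc, which fell.

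Sex-biased expression differed in Shp2 KO liver, in male mice of both genotypes. Of 28 tested male-biased genes, 17 fell and 4 rose, with a median difference of -0.86, against -0.03 over all genes. Selenbp2 fell to 136 in Shp2 KO liver, against 874 in WT liver, Moxd1 to 0.0912, against 1.94, and the pseudogene Serpina4-ps1 to 227, against 630. Among the 4 that rose were Cyp4a12a, at 434 in Shp2 KO liver and 141 in WT liver, and Cyp4a12b, at 158 and 51.0. Of 36 female-biased genes in the table only 23 were tested, and of these 15 rose and 2 fell. Cyp2c69 and Cyp2c40 rose to 30.2 and 23.4 in Shp2 KO liver, against 1.82 and 2.31 in WT liver, and the carriers Slc22a26 and Slc22a27 to 1.38 and 1.71, against 0.115 and 0.0876. Hamp2, one of the 2 that fell, was 60.6 in Shp2 KO liver and 256 in WT liver. Strongly female genes stayed near 0, with Cyp2b9 at 0.0429 in Shp2 KO liver and 0.0402 in WT liver, and Sult2a1 at 0.0110 in Shp2 KO liver and 0 in WT liver.

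Of 19 major urinary protein genes only 4 were tested, because the others were too abundant, and 3 of these fell. Mup21 was 199 in Shp2 KO liver and 802 in WT liver. These genes are near-identical copies, so reads may be split between them. In the growth hormone axis, 2 of 16 tested genes fell and none rose, so 12.5% passed, against 9.33% of all genes tested. The feedback gene Cish fell to 8.86 in Shp2 KO liver, against 18.7 in WT liver, and the transcription factor Onecut1 to 5.68, against 9.62. Ghr, Stat5b, Socs2 and Igf1 were 165, 9.72, 19.8 and 215 in Shp2 KO liver, against 214, 10.9, 18.9 and 227 in WT liver, and did not pass. The female-biased repressor Cux2 was too low to be tested in liver (0.128 in Shp2 KO liver, 0.0646 in WT liver). It was tested in isolated hepatocytes and rose there, to 4.78 in Shp2 KO, against 0.434 in WT.

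Drug-metabolising enzymes changed in both directions. Of 45 tested Cyp1 to Cyp3 genes and their regulators, 14 rose and 8 fell, although the median difference was -0.22 and 25 members lay below 0. Cyp2a5, a coumarin hydroxylase, rose to 2275 in Shp2 KO liver, against 351 in WT liver, and was the most abundant in Shp2 KO liver of the genes that rose. Cyp2c38 rose to 44.6, against 6.18, and Cyp3a11 to 1215, against 368. Por, the reductase that supplies these enzymes with electrons, rose to 325, against 171. Of the Cyp2d genes, Cyp2d9, Cyp2d13, Cyp2d26 and Cyp2d40 fell, the last to 22.3 in Shp2 KO liver, against 90.9 in WT liver, and Cyp2b10 fell to 0.928, against 2.54. Reads shared between these close relatives make single values uncertain.

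Among glutathione transferases and Nrf2 targets, 20 of 44 tested members rose and 3 fell, with a median of 0.63. Ephx1, an epoxide hydrolase, rose to 643 in Shp2 KO liver, against 266 in WT liver, Mgst3 to 57.2, against 22.7, and Gpx4, which reduces lipid peroxides, to 420, against 214. Gstp1 fell to 1125, against 2429, as did Osgin1, to 72.4, against 142. Nqo1, the classical Nrf2 target, was 14.1 in Shp2 KO liver and 3.04 in WT liver but missed the threshold (Cuffdiff q = 0.0651 in the authors' deposited table). The gene of Nrf2, Nfe2l2, was 41.5 and 33.3 without passing. Conjugation was mixed, with 3 of 22 tested Ugt and Sult genes higher and 5 lower, and Ugdh, which makes UDP-glucuronate, was 182 in Shp2 KO liver and 77.4 in WT liver.

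Metal-handling genes gave some of the largest falls in abundant transcripts. Mt1 fell to 194 in Shp2 KO liver, against 1675 in WT liver, and Mt2 to 99.6, against 1032. The zinc importers of the Zip family went in opposite directions: Slc39a5 rose to 11.1 in Shp2 KO liver, against 0.616 in WT liver, and Slc39a4 fell to 11.3, against 29.3. Slc30a10, a manganese exporter, fell to 3.43, against 7.01. Metallothionein promoters are shown because they carry copies of the metal response element, the site of the zinc-sensing factor Mtf1. Each sequence runs from 250 bases before to 50 bases after the RefSeq start on build GRCm38.p6, 5′ to 3′ on the gene's strand, and capitals mark the core TGCACNC or TGCGCNC on either strand, where N is any base.
Mt1: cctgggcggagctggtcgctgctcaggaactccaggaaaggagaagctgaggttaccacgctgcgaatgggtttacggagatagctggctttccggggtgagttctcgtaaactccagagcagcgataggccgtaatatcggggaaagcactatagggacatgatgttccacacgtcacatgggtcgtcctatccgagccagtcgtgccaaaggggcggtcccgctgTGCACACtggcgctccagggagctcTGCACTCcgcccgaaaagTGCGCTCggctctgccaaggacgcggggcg
Mt2: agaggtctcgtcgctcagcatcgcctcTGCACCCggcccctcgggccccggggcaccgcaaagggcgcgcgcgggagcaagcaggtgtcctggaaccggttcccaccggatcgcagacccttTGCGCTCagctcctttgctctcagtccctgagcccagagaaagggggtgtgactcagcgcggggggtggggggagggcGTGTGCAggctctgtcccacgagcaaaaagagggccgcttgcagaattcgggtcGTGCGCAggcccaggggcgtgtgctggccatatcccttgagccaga
Mt1 (chr8:94178839-94179138, plus strand) held 3 matches and Mt2 (chr8:94172368-94172667, plus strand) 4, and 7630 of 27025 genes with a RefSeq promoter (28.2%) held at least 1. Of the metal and iron genes with a promoter in the table, 3 of 4 that fell, 2 of 3 that rose and 3 of 7 that did not pass held a core. In the list, 3 of 21 tested members rose and 6 fell, and the iron hormone Hamp was 4320 in Shp2 KO liver and 5188 in WT liver without passing.

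Secreted plasma proteins were more often lower. Of 43 tested complement and coagulation genes, 12 fell and 3 rose, with a median difference of -0.33. C4a fell to 4.75 in Shp2 KO liver, against 34.5 in WT liver, coagulation factor F11 to 15.2, against 55.8, and C8a, of the membrane attack complex, to 109, against 249. Fibrinogen genes Fgb and Fgg fell to 1911 and 1656, against 4401 and 3378 (Cuffdiff q = 0.0390 and 0.0322 in the authors' deposited table). C1qa and C1qb, macrophage products, were among the 3 that rose, with C1qa at 60.4 in Shp2 KO liver and 42.0 in WT liver. Of 17 tested serpins, 7 fell and 3 rose: Serpina12 (vaspin) fell to 2.38 in Shp2 KO liver, against 31.8 in WT liver, while Serpina7, which carries thyroid hormone, rose to 46.0, against 11.4. C4a and C4b, like the Serpina3 genes, are close copies whose reads may be shared.

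Acute phase genes did not move together. Of 26 tested, 4 rose and 6 fell, with a median of -0.19. The largest rise was Orm2, to 126 in Shp2 KO liver, against 14.8 in WT liver, and Orm3 rose to 4.64, against 1.94. Saa3 and Saa2 rose to 40.6 and 504 in Shp2 KO liver, against 17.5 and 233 in WT liver, and Serpina3m fell to 39.6, against 129. In isolated hepatocytes Orm2, Orm3 and Saa3 rose as well, and Saa2 did not pass. Saa1, Hp and Lcn2 were 636, 2593 and 32.6 in Shp2 KO liver, against 534, 2546 and 23.7 in WT liver, without passing. In the unfolded protein and integrated stress response, the transcription factor gene Xbp1, the disulfide isomerase gene Pdia6 and Manf fell, at 115, 130 and 52.9 in Shp2 KO liver, against 198, 210 and 89.6 in WT liver. Of 27 tested genes in that list 6 fell and 3 rose (Asns, Cth and Fgf21), and Atf4 and Ddit3 did not pass. Of 29 tested type I interferon genes 4 fell and none rose, and of 29 interferon-γ GTPases and MHC genes 5 fell and none rose. Iigp1, an interferon-induced GTPase, was 46.7 in Shp2 KO liver and 120 in WT liver.

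Hormones made by the liver shifted as well. Of 24 tested hepatokines, 6 fell and 1 rose. Enho (adropin) fell to 12.8 in Shp2 KO liver, against 28.3 in WT liver, Fgf1 to 9.01, against 22.0, and Fst (follistatin) to 0.744, against 2.20. The one that rose was Fgf21, a fasting hormone, at 7.46 in Shp2 KO liver and 3.12 in WT liver. Of 22 tested hepatocyte transcription factors, 5 fell and none rose, among them Foxa1 (5.15 in Shp2 KO liver, 8.09 in WT liver) and Foxa3 (42.7 and 61.7). Hnf4a and Cebpa were 157 and 181 in Shp2 KO liver, against 201 and 186 in WT liver, and did not pass. Of 20 tested core clock genes 2 fell and none rose, and Arntl, Per1, Dbp and Nr1d1 were 0.514, 13.5, 110 and 46.7 in Shp2 KO liver, against 0.449, 13.2, 115 and 59.3 in WT liver, without passing. The labels give no hour of collection.

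Mitosis genes rose from low levels. Of 33 listed genes, 26 were tested, and 19 of these rose and none fell. Ube2c, the ubiquitin-conjugating enzyme that works with the anaphase-promoting complex, was 2.41 in Shp2 KO liver and 0.455 in WT liver. Top2a, which untangles chromosomes, was 0.842 and 0.328, and the spindle protein gene Hmmr 0.341 and 0.0799. Only 6 of the 19 had 1 FPKM or more in either genotype. In isolated hepatocytes 9 of 24 tested mitosis genes rose and none fell. The part of other cell types in the liver rises was not tested. DNA replication genes were less often called, with 5 of 29 tested higher and 1 lower, although the difference between the lists was not tested. E2f8 rose to 6.90 in Shp2 KO liver, against 3.12 in WT liver, while the replication factor gene Mcm10 fell to 32.4, against 49.2. Promoters of mitosis genes are shown for the CCAAT box, the site of the factor NF-Y, with capitals marking ATTGG on either strand, which may overlap.
Ube2c: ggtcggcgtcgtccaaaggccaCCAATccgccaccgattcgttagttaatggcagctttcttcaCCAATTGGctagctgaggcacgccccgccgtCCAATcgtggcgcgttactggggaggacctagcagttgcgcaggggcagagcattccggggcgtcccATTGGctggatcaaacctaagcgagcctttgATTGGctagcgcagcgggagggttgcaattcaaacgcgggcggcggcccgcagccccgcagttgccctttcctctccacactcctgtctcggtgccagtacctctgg
Top2a: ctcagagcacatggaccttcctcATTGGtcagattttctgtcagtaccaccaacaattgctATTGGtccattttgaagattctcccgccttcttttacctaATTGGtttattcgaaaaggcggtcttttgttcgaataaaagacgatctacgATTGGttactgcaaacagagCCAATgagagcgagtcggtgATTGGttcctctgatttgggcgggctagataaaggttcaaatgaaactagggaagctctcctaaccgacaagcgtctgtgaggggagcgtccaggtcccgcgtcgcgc
Hmmr: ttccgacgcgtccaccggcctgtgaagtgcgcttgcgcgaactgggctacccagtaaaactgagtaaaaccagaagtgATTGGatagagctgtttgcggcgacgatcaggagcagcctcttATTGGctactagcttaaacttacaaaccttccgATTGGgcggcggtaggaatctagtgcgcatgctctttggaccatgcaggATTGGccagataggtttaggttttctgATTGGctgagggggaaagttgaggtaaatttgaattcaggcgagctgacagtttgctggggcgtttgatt
Ube2c (chr2:164769679-164769978, plus strand) and Top2a (chr11:99024140-99024439, minus strand) held 6 boxes each, and Hmmr (chr11:40733388-40733687, minus strand) 5. Of the mitosis genes with a RefSeq promoter, 13 of 15 that rose and 3 of 4 that did not pass held at least 1, as did 41.1% of all 27025 genes. Other searches gave few matches in the genes that changed. The sterol element TCACNCCAC was in 0 of 11 cholesterol synthesis genes that rose (1.44% of all genes). The Ets site CCGGAAG was in 0 of 4 Ras-Erk feedback genes and targets that fell (9.93%). The antioxidant element TGACNNNGC was in 2 of 17 Nrf2 list members that rose and 7 of 19 that did not pass (14.0% of all genes). The E-box CACGTG was in the 1 clock gene that fell with a promoter in the table and in 4 of 15 that did not pass (8.09% of all genes). A match describes letters and not a bound factor.

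Bulk tissue holds several cell types, and fewer cells of a type cannot be told apart from less RNA per cell. Macrophage markers were higher in Shp2 KO liver in 21 of 22 cases, of which 6 passed, and their summed value was 427 in Shp2 KO liver and 312 in WT liver. Lyz2 and Cd14 rose to 58.5 and 3.57 in Shp2 KO liver, against 36.0 and 1.80 in WT liver, while Adgre1 and Cd68 were 3.32 and 12.1, against 2.89 and 8.98, without passing. Endothelial markers were lower in 21 of 22 cases, of which 6 passed, with sums of 128 in Shp2 KO liver and 171 in WT liver. Beyond Lyve1 and Kdr, Flt4 fell to 2.86 in Shp2 KO liver, against 4.51 in WT liver, and Tek to 1.38, against 2.20. Bile duct markers had sums of 63.6 in Shp2 KO liver and 107 in WT liver, and 4 of 12 tested fell. A large part of that gap was Tff3, at 8.03 in Shp2 KO liver and 36.1 in WT liver, and Tff3 was also 36.1 in WT hepatocytes. Krt19 and Epcam were 1.51 and 1.12 in Shp2 KO liver, against 1.68 and 1.37 in WT liver, without passing. In isolated hepatocytes 5 of 12 tested bile duct markers rose and 1 fell. The part of these cells in C1qa, C1qb and the collagens (Col1a1 6.33 in Shp2 KO liver, 3.77 in WT liver) was not tested.

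**Figure D4:**
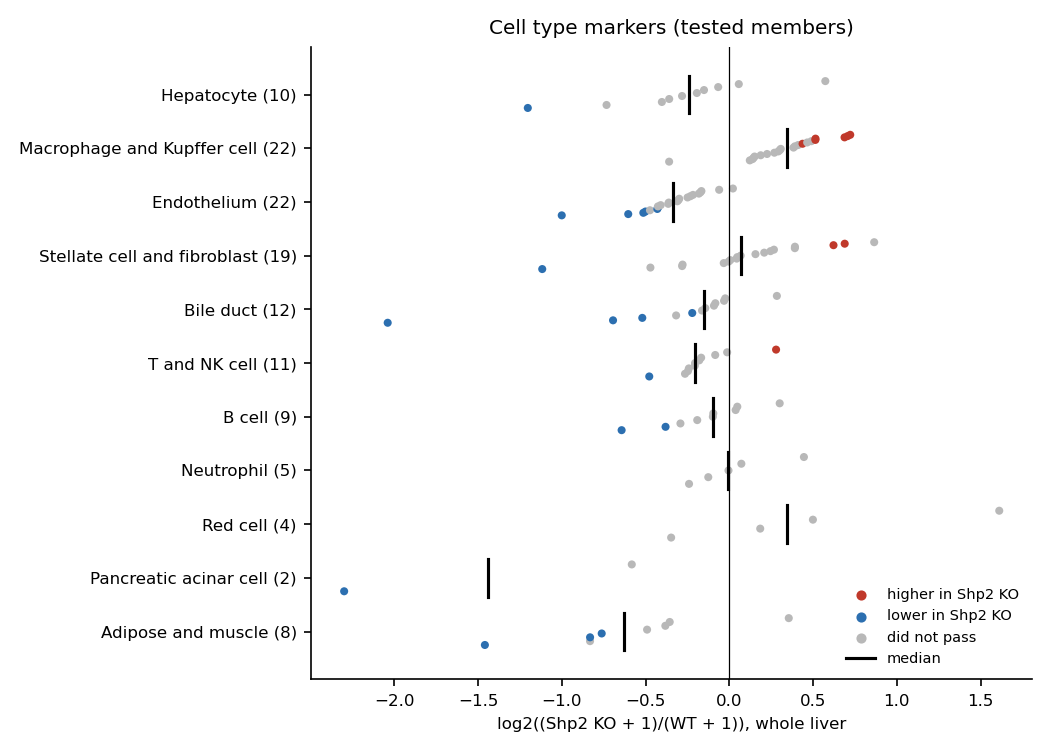
Log2 differences of the tested cell type markers in whole liver, 1 point per gene, with the list median as a black bar and the number tested in brackets. Macrophage markers lie to the right of 0 and endothelial markers to the left, with 1 exception each.

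Smaller marker lists held few calls. None of 5 tested neutrophil markers and none of 4 red cell markers passed in the Cuffdiff test, and the T and NK cell list had 1 rise and 1 fall among 11. Of the pancreatic acinar markers Cela1 fell, while the defining genes Cpa1, Pnlip and Prss2 were listed at 0 in Shp2 KO liver and were 0.0726, 0.0499 and 0.101 in WT liver. Cela1 also fell in isolated hepatocytes, to 5.60 in Shp2 KO, against 26.7 in WT.

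Outside the lists lay 833 of the 1174 genes that passed. Among the largest rises there, Gal3st1, which makes sulfatide, was 8.66 in Shp2 KO liver and 0.497 in WT liver, and Ntrk2, the receptor of the neurotrophin BDNF, 7.13 and 0.516. The tubulin gene Tuba8 rose to 12.9 in Shp2 KO liver, against 1.60 in WT liver, and Ptgds, a prostaglandin D synthase, to 18.1, against 3.42. Among the largest falls, the forkhead gene Foxq1 was 2.80 in Shp2 KO liver and 18.3 in WT liver, and the succinate receptor gene Sucnr1 3.47 and 14.8. Obp2a, an odorant-binding protein gene, fell to 0.414, against 6.15. Fam25c, among the most abundant genes that rose, was 671 in Shp2 KO liver and 197 in WT liver.

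Hepatocytes isolated from mice of the same genotypes gave separate libraries, with their own table and their own WT samples. RNA of liver and of hepatocytes was extracted with different kits, the tables were normalized separately, differences between them were not tested, and the labels do not say whether liver and hepatocytes came from the same mice. Of the 658 genes that rose in liver, 624 were tested in hepatocytes and 408 rose there (65.4%), against 7.13% of all genes tested in hepatocytes. These 408 were 49.4% of the 826 hepatocyte rises that were tested in liver. Of the 516 that fell in liver, 489 were tested in hepatocytes and 291 fell there (59.5%), against 4.53% of all, and these were 55.0% of 529 hepatocyte falls tested in liver. Only 9 of the 1113 liver calls tested in hepatocytes passed there in the opposite direction. Macrophage markers also rose in the isolated hepatocytes, 14 of 19 tested, and none fell. The part of other cell types in the shared calls was not tested.

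The 9 opposite genes included both metallothioneins described above. In hepatocytes Mt1 and Mt2 rose to 1226 and 952 in Shp2 KO, against 573 and 464 in WT, where both fell in liver. Slc39a5 rose in both tables, to 9.29 in Shp2 KO hepatocytes, against 0.737 in WT hepatocytes. Elovl3, a fatty acid elongase, rose in liver, to 165 in Shp2 KO, against 101 in WT, and fell in hepatocytes, to 36.1 in Shp2 KO, against 139 in WT. G0s2, an inhibitor of triglyceride lipase, was 210 in Shp2 KO liver and 135 in WT liver, but 113 in Shp2 KO hepatocytes and 211 in WT hepatocytes. The other 5 were Ly6a, Nrep, Tcea3 and Tlr12, higher in liver, and Prom1, lower in liver.

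**Figure D5:**
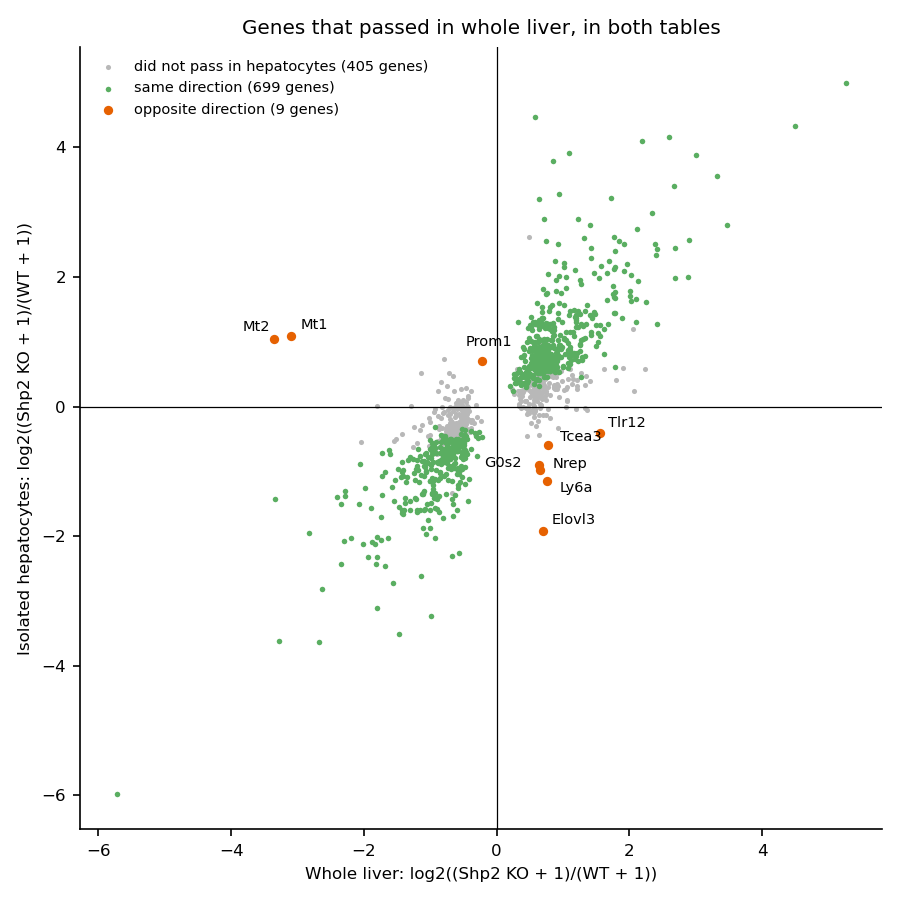
Genes that passed in whole liver and were tested in isolated hepatocytes, by their log2 difference in liver (x axis) and in hepatocytes (y axis). Green points passed in the same direction (699), grey points did not pass in hepatocytes (405), and the 9 orange points passed in the opposite direction.

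Some liver changes did not pass in hepatocytes. Ccnd1 was 4.95 in Shp2 KO hepatocytes and 4.93 in WT hepatocytes, after its fall in liver. The pericentral genes Oat, Lhpp and Slc13a3 were 194, 18.7 and 1.95 in Shp2 KO hepatocytes, against 200, 17.4 and 2.06 in WT hepatocytes. In hepatocytes 4 tested pericentral genes fell (Glul, Slc1a2, Rhbg and Gulo) and 2 rose (Cyp2a5 and Aldh3a2), where 6 rose and none fell in liver. Glul was 33.1 in Shp2 KO hepatocytes and 110 in WT hepatocytes. Uroc1 and Ftcd were 176 and 256 in Shp2 KO hepatocytes, against 254 and 396 in WT hepatocytes, whereas Hal fell in both tables. Of the 15 cholesterol synthesis genes that rose in liver, all rose in hepatocytes as well, for example Pmvk to 134 in Shp2 KO, against 78.0 in WT.

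Direct tests set Shp2 KO liver beside the other knockouts. Against IkkB KO liver, 10.3% of 12605 genes passed: Shp2 KO liver was higher for 5.43% and lower for 4.84%. The feedback genes Dusp6 (4.61 in Shp2 KO liver, 13.3 in IkkB KO liver) and Spry4 (0.346 and 2.75) were lower in Shp2 KO liver, and so were the periportal genes Hsd17b6 (24.2 and 104) and Hal (35.5 and 137). Csad (749 in Shp2 KO liver, 86.4 in IkkB KO liver) and Acot1 (20.8 and 4.80) were higher in Shp2 KO liver in the same test. Mt2 was higher too, at 99.6 in Shp2 KO liver and 44.7 in IkkB KO liver. Mt1 did not pass, at 194 in Shp2 KO liver and 133 in IkkB KO liver, nor did Il1r1 (9.48 and 10.5), Cyp7b1 (108 and 102) or Prlr (23.4 and 26.6), so a difference between the single deletions was not detected for these.

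When both genes were deleted, 10.8% of 12878 genes passed against Shp2 KO liver: Double KO liver was higher for 7.94% and lower for 2.83%. Ccnd1 was higher with both deletions, at 22.2 in Double KO liver and 5.14 in Shp2 KO liver. Cdh1 and Hsd17b6 were also higher, at 7.07 and 59.0 in Double KO liver, against 2.52 and 24.2 in Shp2 KO liver. Cyp7a1 was lower with both deletions (67.0 and 135), as were Fdps (255 and 471) and Pmvk (59.2 and 109). The mitosis gene Ube2c was higher again, at 5.31 in Double KO liver and 2.41 in Shp2 KO liver. The male-biased genes Hsd3b5 and Selenbp2 were lower still, at 0.666 and 72.2 in Double KO liver, against 4.29 and 136 in Shp2 KO liver. Csad, Cyp3a11 and Oat did not pass between these 2 genotypes, at 520, 1596 and 977 in Double KO liver, against 749, 1215 and 1025 in Shp2 KO liver.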

How the data were processed

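PolyA RNA of whole liver and of isolated hepatocytes was sequenced with TruSeq v2 libraries, per the labels. Per the submitters' processing notes, FastQC and Cuffdiff were run on build mm9. No aligner, annotation, version or strand setting is given in the sources used here. The authors deposited 1 Cuffdiff table per tissue, with a value per gene and genotype that is read here as FPKM, a log2 fold change, a test score, a p-value and a q-value for each of 6 pairs of genotypes in liver and 5 in hepatocytes, per the file headers. The deposited q-values were recomputed from the deposited p-values over all 6 liver pairs and differed by at most 5.27e-07. The values pool 3 libraries, so no value per library, depth, SD or interval is given, and p-values measure only the spread Cuffdiff estimated.

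Genes that Cuffdiff tested (status OK), with 0.1 or more in 1 genotype, were compared on log2(value + 1), a scale that understates the change of low genes. Those with q under 0.05 were called. Gene lists are read as counts and medians, without a set test. Named genes were Ptpn11, Ikbkb, up to 8 called members of each list (by q, then size of difference), any member of 5 signalling, clock and growth hormone lists, and the 25 largest rises and falls and 15 most abundant calls in each direction. Other genes that are named, such as members that did not pass, were chosen after their values were seen. The comparison, its gene lists and its tests were chosen with earlier results of these data known. Adjustment was tested on simulated data. Genes with near-identical or overlapping copies (Mup, Cyp2, Cyp4a, Gst, Saa, Serpina3, C4) have uncertain single values. RefSeq promoters (GRCm38.p6) matched 855 of 1174 called genes by symbol. Alternatives were a stricter q, a minimum fold, a minimum value, another pseudocount and adjustment within the comparison. Scripts ran in Python 3.11.15; matplotlib 3.10.9 drew the figures, and pandas 2.3.3, scipy 1.17.1 and numpy 2.4.6 made the tables.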

Additional observations from a re-analysis of the deposited data

How the results depend on the processing

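The alternatives could change which genes passed but could not reverse the direction of a gene, which is set by its 2 values. At q under 0.01, 342 genes were lower in Shp2 KO liver and 452 higher, and with a log2 difference of at least 1 as well as q under 0.05, 284 passed, 161 higher and 123 lower. Adjustment within the comparison left 1080 genes, and a minimum value of 1 left 1024. Double KO against Shp2 KO liver gave 814 genes at q under 0.01, against 1388 at q under 0.05, an alternative chosen after seeing the data. Mitosis calls depended on low values: 12 were higher at q under 0.01, and 6 among genes of at least 1 FPKM. At q under 0.01, 3 macrophage markers were higher, 2 endothelial markers lower and 0 type I interferon genes lower. Adjustment within the comparison ended the call of 17 named genes, including Map2k1, Irs2, Fgb, C1qa, C1qb, Onecut1, Foxa3, G0s2, Prom1, Adipoq and Etnppl. No paired analysis was possible because the deposited columns hold 1 value per genotype and carry no replicates, and leaving out a replicate could not be run for the same reason. The cause of the moved counts is the stricter rule itself. Depth is unknown, so how far it limits low genes cannot be given.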

Other observations

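Organic ion carriers were among the gene groups not described above. Of 26 tested members of these solute carrier families, 8 rose and 2 fell in Shp2 KO liver. Slc16a5, a monocarboxylate carrier, was 13.7 in Shp2 KO liver and 1.78 in WT liver, and Slc22a3, an organic cation carrier, 13.3 and 1.99. Of 18 tested heat shock genes, 2 rose and none fell, so 11.1% passed, near the 9.33% of all genes tested. Hspb1 was 89.9 in Shp2 KO liver and 33.1 in WT liver, and Hspa1b 7.04 and 2.80. Of 23 tested p53 targets, 4 rose and none fell, among them Plk3 (111 in Shp2 KO liver, 47.5 in WT liver), while Cdkn1a was 2.14 and 1.80 without passing. H2-Q1 had 1 of the 15 differences of at least 3 that did not pass, at 26.8 in Shp2 KO liver and 1.45 in WT liver. MHC genes are close copies, and reads may be split between them.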
